A study of Mus musculus with 12 samples.

Results

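This account follows 9 cytoskeletal genes across sorted mouse B cells: Tppp, Krt8, Krt18, Vim, Lmna, Ahnak, Ahnak2, Myl4 and Csrp2. They were chosen by their log2 intensity, around the large differences of Tppp, Krt18, Ahnak2 and Myl4 between B1 and follicular (FO) cells, so the old B1 minus FO difference is described below and not tested. The choice read intensities of all 4 groups and is not stated to be limited to one age, so no comparison below is independent of it. The 9 are among 18193 genes with a probe set of their own on the array, and 21 of the 45037 probe sets carry one of their symbols alone. RNA was measured on 12 Affymetrix arrays, 3 a group. All cells came from female C57BL/6 mice and were sorted by flow cytometry without culture. Old B1 cells are from the peritoneal cavity of mice older than 15 months, and young B1 cells are from the same site at 8 weeks. The sample titles name them B1a. Age-associated B cells (ABC) and FO cells are from the spleen of mice older than 15 months. No genetic change or treatment is stated for any group. The sort markers and the number of mice behind a sample are not stated either, so a p-value here reflects the spread of the arrays within groups, which may be technical. Cell type and organ differ together between B1 and spleen cells, and young B1 cells also differ in age from the spleen groups, so these cannot be told apart.

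The cytoskeleton has 3 filament systems: microtubules of tubulin, actin filaments pulled on by myosin, and intermediate filaments. Keratins assemble as pairs of a type I chain such as Krt18 and a type II chain such as Krt8, and are best known from simple epithelia. Vimentin is the intermediate filament of lymphocytes, macrophages and other cells of mesodermal origin, and lamins form the mesh under the nuclear membrane. B1 cells are a self-renewing B cell lineage of the body cavities, FO cells are the main resting recirculating B cells, and ABC gather in the spleen with age.

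The label "marking B1" is met by higher levels for 7 of the 9 genes. Tppp, Krt8, Krt18, Vim, Lmna, Ahnak and Ahnak2 were higher in B1 samples, while Myl4 was lower in B1 samples. The ABC to young B1 step was small on the brightest probe set, 0.34 for Vim and 0.44 for Ahnak on the log2 scale. Its call did not hold in every alternative setting, and some dimmer probe sets gave larger steps, as given below. Csrp2 set FO samples apart from the other 3 groups and not B1 from ABC samples. Median intensity ran from 44 to 49.2 over the 12 arrays. The 75th percentile was 346 on old B1 replicate 3 and 378 on old FO replicate 2, against 400 to 412 on the other 10. These arrays also had the lowest limma array weights, 0.102 and 0.349, and results that rest on them are given with and without them. B cell markers were high in all groups: the summed intensity of 9 measured markers was 53385 to 56996 in old B1, 55195 to 56659 in young B1, 57388 to 59418 in ABC and 58592 to 62648 in FO samples. Of these, Pax5 lay below the array median on all 3 old B1 arrays. Below, a level is a log2 intensity of the gene's brightest probe set, ± beside a level is the SD over 3 arrays, ± beside a difference is its SE from the limma fit, and a gene is called at an adjusted p under 0.05 over all genes. Levels of different genes are not compared, because probe sets differ in brightness.

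**Figure D1:**
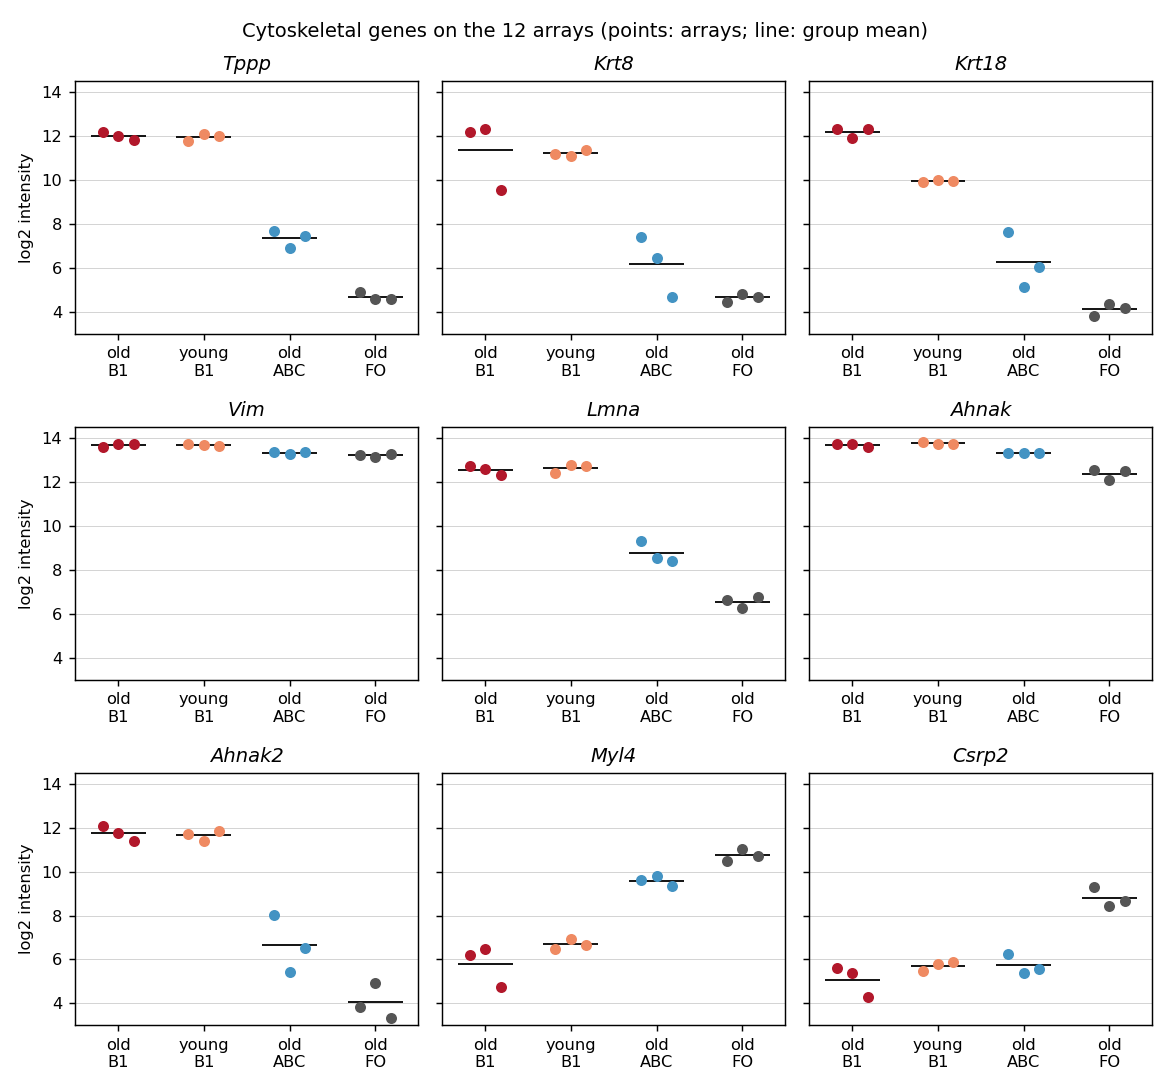
Log2 intensity (vertical axis) of the 9 genes in the 4 groups (horizontal axis); each point is an array and each line a group mean. Tppp, Krt18, Lmna and Ahnak2 step down over B1, ABC and FO samples, Krt8 is high in B1 samples with ABC and FO arrays overlapping, Vim and Ahnak stay above 12 on every array, Myl4 runs the other way and Csrp2 is high in FO samples only.

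Promoters are shown for the microtubule gene Tppp, for the keratin partners Krt8 and Krt18, whose old B1 arrays fell in a different order, and for Myl4, which ran opposite to them. Each is the RefSeq stretch (GRCm38.p6) of 250 bases before to 50 after the annotated start, read 5′ to 3′ on the gene's strand. They lie at chr13:74009169-74009468 (+ strand), chr15:102004293-102004592 (- strand), chr15:102027966-102028265 (+ strand) and chr11:104550413-104550712 (+ strand). Capitals mark matches, on either strand, to TATAAA or to GGGCGG or to TGANTCA or to the CArG box.
Tppp: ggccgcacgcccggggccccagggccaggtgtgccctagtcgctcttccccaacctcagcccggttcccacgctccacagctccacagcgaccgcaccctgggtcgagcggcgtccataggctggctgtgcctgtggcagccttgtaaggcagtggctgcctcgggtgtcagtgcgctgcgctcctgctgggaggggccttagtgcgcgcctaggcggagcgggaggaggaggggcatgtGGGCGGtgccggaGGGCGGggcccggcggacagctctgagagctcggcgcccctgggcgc
Krt8: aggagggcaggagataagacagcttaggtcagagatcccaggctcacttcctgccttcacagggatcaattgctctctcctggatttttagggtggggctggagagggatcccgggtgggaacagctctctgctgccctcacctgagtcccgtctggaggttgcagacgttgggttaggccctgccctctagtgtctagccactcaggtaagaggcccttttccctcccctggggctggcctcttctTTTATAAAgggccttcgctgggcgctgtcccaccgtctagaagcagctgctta
Krt18: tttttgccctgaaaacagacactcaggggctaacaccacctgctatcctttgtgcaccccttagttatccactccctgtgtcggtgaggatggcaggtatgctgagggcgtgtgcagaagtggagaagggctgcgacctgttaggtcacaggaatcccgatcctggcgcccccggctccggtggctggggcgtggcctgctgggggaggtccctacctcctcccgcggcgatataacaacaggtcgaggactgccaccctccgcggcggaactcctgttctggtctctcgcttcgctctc
Myl4: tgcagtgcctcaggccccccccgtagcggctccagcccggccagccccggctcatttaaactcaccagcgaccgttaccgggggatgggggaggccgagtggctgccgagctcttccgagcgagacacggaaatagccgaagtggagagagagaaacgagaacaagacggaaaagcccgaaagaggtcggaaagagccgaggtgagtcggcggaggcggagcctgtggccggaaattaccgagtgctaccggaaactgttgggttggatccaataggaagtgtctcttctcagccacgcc
Tppp holds GGGCGG at bases 241 and 254, a motif found in 35.7% of the 32851 promoters in the table. Krt8 holds TATAAA at base 250, overlapping a match on the other strand at base 248, and 13.6% of promoters hold this motif. The Krt18 and Myl4 stretches hold none of the 4. TGANTCA occurs in 7.81% and the CArG box, the motif bound by serum response factor, in 1.63% of all promoters. No stretch of the 8 genes in the table held a CArG box, and TGANTCA was found once, in an Lmna stretch. Krt8 and Krt18 are neighbours on chromosome 15 with no protein-coding gene between them in the RefSeq table. The 2 promoters differ in base composition, with 6 CpG in the Krt8 and 17 in the Krt18 stretch, against a median of 7 over all promoters. Csrp2 is named only.

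Tppp encodes the tubulin polymerization-promoting protein, which binds and bundles microtubules. Its level was 12.18, 12.02 and 11.81 on the old B1 arrays, 11.78, 12.11 and 12.02 on the young B1 arrays, 7.69, 6.91 and 7.44 on the ABC arrays, and 4.90, 4.58 and 4.58 on the FO arrays. The B1 groups overlapped, ABC lay between B1 and FO, and no ABC array reached either neighbour. The FO arrays were below the median of all probe sets on their own array, between the 38.2 and the 43.5 percentile. Krt8, Krt18 and Ahnak2 were likewise below it on all 3 FO arrays and on 1 ABC array, so folds of these 4 genes against FO samples are not exact, nor are those of the 3 against ABC samples. Tppp was 4.62 ± 0.20 higher in young B1 than in ABC samples (24.6-fold, limma adjusted p = 8.4e-07) and 2.66 ± 0.20 higher in ABC than in FO samples (6.31-fold, adjusted p = 1.7e-05). Both calls held in all 20 alternative settings run.

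Krt18, the type I keratin of simple epithelia, was at 12.30, 11.90 and 12.33 on the old B1 arrays and at 9.92, 9.99 and 9.95 on the young B1 arrays. It was at 7.64, 5.12 and 6.02 on the ABC arrays, and at 3.81, 4.36 and 4.16 on the FO arrays. Here alone among the 7 genes high in B1 the old B1 arrays all lay above the young ones. The old minus young B1 difference was 2.22 ± 0.48 (4.67-fold, higher on 3 of 3 old arrays), 19th highest of all genes, and was not called (limma adjusted p = 0.137). Among all genes 6.14% lay wholly higher and 7.75% wholly lower on the old than on the young B1 arrays. The spread entering that fit was uneven: the SD was 0.24 in old B1, 0.04 in young B1 and 1.27 in ABC samples. With the B1 groups fitted alone the adjusted p was 0.046, with array weights 0.0453, without ABC replicate 1 0.00644 and without ABC replicate 2 0.0425, and over all 20 settings it ran from 0.00644 to 0.456. Krt18 was 3.69 ± 0.48 higher in young B1 than in ABC samples (12.9-fold, adjusted p = 6.2e-04).

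Krt8, the type II partner, was at 12.19, 12.30 and 9.54 on the old B1 arrays and at 11.19, 11.11 and 11.34 on the young B1 arrays. It was at 7.39, 6.43 and 4.69 on the ABC arrays and at 4.44, 4.83 and 4.69 on the FO arrays. Old B1 replicate 3, the array with the lowest weight, was low for Krt8 and at the group's top for Krt18. All 3 Krt8 probe sets were low on it, at 9.54, 9.03 and 8.75. The old minus young B1 difference of Krt8 was 0.13 ± 0.75 (limma adjusted p = 0.967), and 1.03 ± 0.57 without that array (adjusted p = 0.815). Without old B1 replicate 1 it was -0.29 and without replicate 2 -0.34. Krt8 was 5.04 ± 0.75 higher in young B1 than in ABC samples (33-fold, adjusted p = 0.00147), 7th highest of all genes.

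In the spleen, Krt18 was 2.15 ± 0.48 higher in ABC than in FO samples (4.44-fold, limma adjusted p = 0.0166, higher on 3 of 3 ABC arrays). The call was lost without FO replicate 1 (adjusted p = 0.0685) or FO replicate 3 (0.0527) and with ABC and FO fitted alone (0.0667). For Krt8 the difference of 1.52 ± 0.75 did not pass (adjusted p = 0.305), and 1 ABC array lay within the FO range. With array weights it was called (2.05, adjusted p = 0.0107). Of the 14 other keratins measured, 0 were called in either direction in young B1 against ABC or in ABC against FO by limma, with 1 in each at an unadjusted p under 0.05. Over all genes 11.4% and 9.96% were called in these comparisons, and 4013 and 3718 of 18193 were at an unadjusted p under 0.05. Of the 14, 12 had means under 6 in every group. Krt10 and Krt80, keratins of stratified epithelia, were the exceptions. Krt80 was at 8.48, 8.64 and 5.47 on the old B1 arrays and at 7.38, 8.34 and 8.30 on the young B1 arrays, with a mean of 6.63 in ABC and 4.97 in FO samples, and so was low on old B1 replicate 3 as Krt8 was. Without that array 2 of the 14 were called higher in young B1 than in ABC samples and 1 higher in ABC than in FO samples.

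Vim encodes vimentin. On its brightest probe set it ran from 13.58 to 13.74 in old B1, 13.61 to 13.71 in young B1, 13.27 to 13.36 in ABC and 13.12 to 13.28 in FO samples. These are small steps at the top of the scale, since every array had this probe set at or above its 99.4 percentile. Vim was 0.34 ± 0.09 higher in young B1 than in ABC samples (1.27-fold, limma adjusted p = 0.0304). A dimmer probe set gave 0.88 ± 0.11 (1.84-fold, adjusted p = 5.8e-04 over all probe sets). The call on the brightest probe set was lost under 9 of 20 settings, among them each single omission of a young B1 or ABC array (adjusted p = 0.0668 to 0.114). The ABC minus FO difference of Vim, 0.12 ± 0.09, was not called (adjusted p = 0.553).

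Lmna encodes lamins A and C, which stiffen the nucleus. It was at 12.70, 12.58 and 12.33 on the old B1 arrays, at 12.41, 12.75 and 12.70 on the young B1 arrays, at 9.32, 8.51 and 8.39 on the ABC arrays and at 6.62, 6.24 and 6.75 on the FO arrays. As for Tppp, the B1 groups overlapped and ABC stood apart from both sides. Lmna was 3.88 ± 0.24 higher in young B1 than in ABC samples (14.7-fold, limma adjusted p = 4.7e-06) and 2.21 ± 0.24 higher in ABC than in FO samples (4.62-fold, adjusted p = 1.8e-04), in all 20 settings. Lmnb1, the B-type lamin that most cells express, had means of 10.43 in old B1, 10.31 in young B1, 10.51 in ABC and 10.13 in FO samples and was not called in any tested comparison. Of the 17 other genes of intermediate filaments and the nuclear envelope, 2 were called higher and 1 lower in young B1 than in ABC samples, where 5.47% of all genes were higher and 5.95% lower. Plec, or plectin, a linker of filaments, was higher by 1.14 ± 0.22 (adjusted p = 0.00644). Syne1, or nesprin 1, which ties the nucleus to the cytoskeleton, was lower by 1.19 on the log2 scale (-1.19 ± 0.26, adjusted p = 0.0132, lost without young B1 replicate 3 at 0.0508 and without ABC replicate 3 at 0.05). Syne1 was the 1 of the 17 called in ABC against FO samples (1.72 ± 0.26, adjusted p = 0.0017), where 9.96% of all genes were called. The higher count was 1 without young B1 replicate 1 or 3 or any ABC replicate in the first comparison, and 3 without FO replicate 2 in the second.

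Ahnak and Ahnak2 encode giant scaffold proteins, and AHNAK binds the S100A10 and annexin A2 complex at the membrane. Ahnak2 was at 12.07, 11.77 and 11.40 on the old B1 arrays, at 11.71, 11.41 and 11.85 on the young B1 arrays, at 8.02, 5.44 and 6.51 on the ABC arrays, and at 3.86, 4.92 and 3.35 on the FO arrays. The ABC arrays spread widely (SD 1.29) but stayed above the FO arrays. Ahnak2 was 31.9-fold higher in young B1 than in ABC samples (log2 SE 0.57, limma adjusted p = 2.7e-04) and 2.61 ± 0.57 higher in ABC than in FO samples (6.12-fold, adjusted p = 0.0143). The second call was lost without FO replicate 1 (0.0563) or FO replicate 3 (0.0642) and with the groups fitted alone (0.0576).

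Ahnak was high everywhere: 13.60 to 13.73 in old B1, 13.70 to 13.83 in young B1, 13.30 to 13.32 in ABC and 12.06 to 12.54 in FO samples. It was 0.94 ± 0.13 higher in ABC than in FO samples (1.91-fold, limma adjusted p = 8.2e-04, in all 20 settings). Dimmer probe sets of Ahnak gave larger steps, 2.30 ± 0.36 and 2.73 ± 0.39. Against ABC, young B1 samples were higher by 0.44 ± 0.13 (1.36-fold, adjusted p = 0.0489), a call lost in 12 of 20 settings, with adjusted p from 0.00246 to 0.168. The arrays whose single omission ended it were old B1 replicates 1 and 2, all young B1 and ABC replicates and FO replicate 3. Every B1 and ABC array had the brightest Ahnak probe set at or above its 99.5 percentile. On the 2 dimmer probe sets above, young B1 minus ABC was 1.19 ± 0.36 and 1.21 ± 0.39. Neither was called over all probe sets (limma adjusted p = 0.0784 and 0.108). Of the 5 other genes of the AHNAK list, 1 was called in ABC against FO samples, Anxa2, the annexin named above (2.99 ± 0.33, adjusted p = 2.2e-04), and 0 in young B1 against ABC samples, with 1 at an unadjusted p under 0.05. Without FO replicate 2 that 0 became 1. Over all genes 9.96% were called in ABC against FO and 11.4% in young B1 against ABC samples. In the latter 4013 of 18193 genes were at an unadjusted limma p under 0.05. S100a10 had means of 13.30 in old B1, 13.27 in young B1, 13.07 in ABC and 12.81 in FO samples and was not called.

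Myl4 encodes the atrial and embryonic essential light chain of myosin, known from heart and fetal muscle. It was at 6.19, 6.46 and 4.77 on the old B1 arrays, at 6.47, 6.95 and 6.66 on the young B1 arrays, at 9.61, 9.81 and 9.34 on the ABC arrays, and at 10.49, 11.01 and 10.70 on the FO arrays. No group overlapped another, though the highest old B1 array (6.46) and the lowest young B1 array (6.47) nearly met, and the order ran upward from old B1 to FO. Myl4 was lower in young B1 than in ABC samples (-2.90 ± 0.37, 7.44-fold, limma adjusted p = 5.3e-04). The differences of -1.15 ± 0.37 between ABC and FO (adjusted p = 0.0858) and -0.88 ± 0.37 between old and young B1 samples (adjusted p = 0.629) were not called. Without old B1 replicate 3 the ABC minus FO difference stayed at -1.15 with adjusted p = 0.00149, and the old minus young B1 difference was -0.37. Another probe set of Myl4 lay under the 25th percentile on all 12 arrays. Of the 18 other genes of myosin chains and their kinase, 1 was called higher and 1 lower in young B1 than in ABC samples, where 11.4% of all genes were called. Myl7, the atrial regulatory light chain, was higher in young B1 than in ABC samples (1.94 ± 0.21, adjusted p = 2.1e-04) and Mylk, a myosin light chain kinase, was lower (-1.58 ± 0.35, adjusted p = 0.0134). Myl7 lay below the array median on all 3 ABC and all 3 old B1 arrays, and Mylk on all 3 young B1 arrays. The sizes of these 2 differences are therefore not exact. Mylpf, a light chain of fast muscle, was lower in ABC than in FO samples (-0.60 ± 0.17, adjusted p = 0.0467), a call lost in 10 of 12 single omissions (adjusted p up to 0.156).

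Csrp2 encodes a LIM domain protein of the cysteine and glycine-rich family, known from smooth muscle. It was at 5.62, 5.37 and 4.27 on the old B1 arrays, at 5.46, 5.79 and 5.90 on the young B1 arrays, at 6.26, 5.40 and 5.58 on the ABC arrays, and at 9.28, 8.42 and 8.64 on the FO arrays. Only the FO arrays stood apart, and the other 3 groups overlapped near the array median. Csrp2 was lower in ABC than in FO samples (-3.03 ± 0.36, 8.18-fold, limma adjusted p = 3.5e-04), the 7th lowest of all genes. Young B1 and ABC samples differed by -0.03 ± 0.36 (adjusted p = 0.987). Of the 20 other LIM domain genes 3 were called higher and 3 lower in young B1 than in ABC samples, and 3 higher and 1 lower in ABC than in FO samples. Over all genes 5.47% were higher and 5.95% lower in the first comparison, and 7.12% and 2.84% in the second. Crip3, a cysteine-rich LIM protein, was lower in both (-2.27 ± 0.19, adjusted p = 3.2e-05, and -1.72 ± 0.19, adjusted p = 1.9e-04). It lay below the array median on all 3 young B1 arrays, so the size against young B1 is not exact. Pdlim1, which binds alpha-actinin, was higher in both (0.97 ± 0.12, adjusted p = 3.8e-04, and 1.41 ± 0.12, adjusted p = 3.5e-05). The lower count in young B1 was 5 and the higher count in ABC was 5 without old B1 replicate 3.

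The shares below are given beside the counts for scale only, since the genes were chosen for large differences on arrays that these comparisons share. In young B1 against ABC samples 8 of the 9 genes were called by limma, where 11.4% of all genes were. Of the 8, 7 were higher in young B1 and 1 lower, where 5.47% of all genes were called higher and 5.95% lower. Their median difference was 3.69, against -0.02 over all genes. ABC against FO samples, where the choice of genes by FO levels tilts the difference the same way, gave 6 called, where 9.96% of all genes were. Of the 6, 5 were higher and 1 lower in ABC, where 7.12% of all genes were called higher and 2.84% lower. The median difference of the 9 was 1.52, against -0.03 over all genes. Old against young B1 samples gave 0 calls among the 9, where 0.291% of all genes were called, or 53. Krt18 and Myl4 were at an unadjusted limma p under 0.05 there, as were 1377 of the 18193 genes. Krt18 was called there in 4 of the 20 settings, and 0 of the 9 in the other 16. Leaving out the arrays that stand apart, old B1 replicate 3 and FO replicate 2, gave 8, 7 and 0 called in the 3 comparisons.

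**Figure D2:**
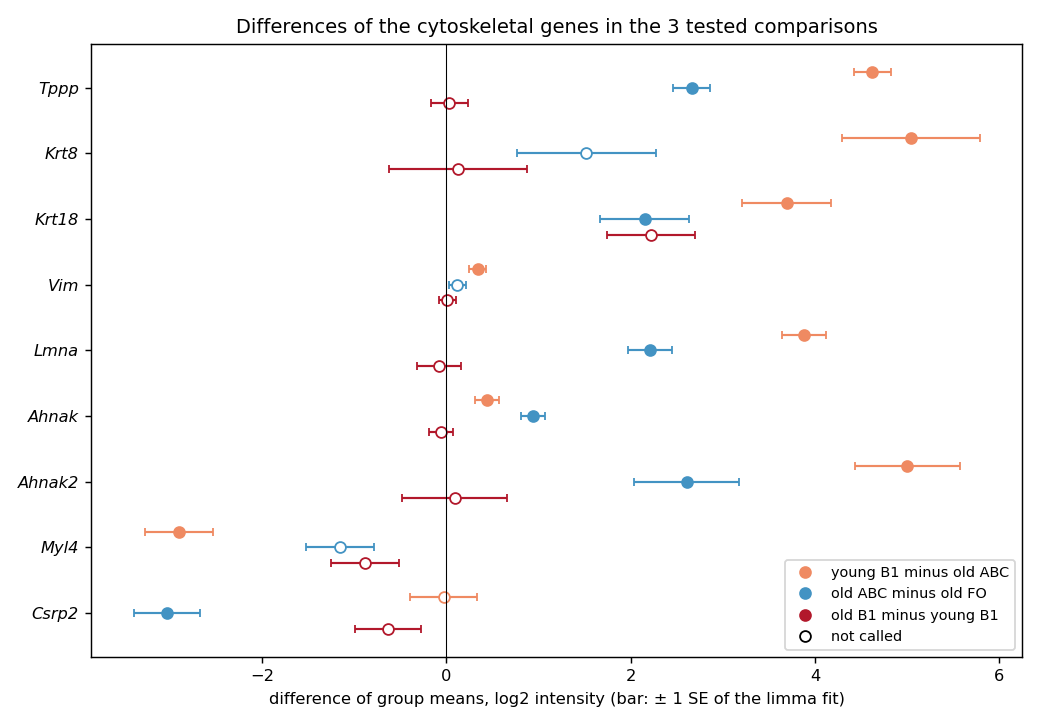
Difference of group means on the log2 scale (horizontal axis, bars ± 1 SE of the limma fit) for the 9 genes (vertical axis) in the 3 tested comparisons; open points were not called. Young B1 minus old ABC reaches 5.04 for Krt8 and -2.90 for Myl4, and old minus young B1 lies near 0 for all but Krt18, Myl4 and Csrp2.

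On the difference used to pick them, old B1 minus FO, the values were 8.06 for Krt18, 7.70 for Ahnak2, 7.32 for Tppp, 6.69 for Krt8, 6.00 for Lmna, 1.31 for Ahnak, 0.47 for Vim, -3.69 for Csrp2 and -4.92 for Myl4. All 9 had groups that did not overlap, 7 higher and 2 lower in old B1, where 12.3% of all genes lay wholly higher and 16.6% wholly lower. Krt18, Ahnak2 and Tppp were 3rd, 4th and 5th highest of 18193 genes, and Myl4 was 7th lowest. Tppp, Krt8, Krt18 and Ahnak2 were below the array median on every FO array, as given above, so the sizes of these differences are not exact either. Old B1 minus ABC gave 5.92 for Krt18, 5.17 for Krt8, 5.09 for Ahnak2, 4.66 for Tppp, 3.80 for Lmna, 0.38 for Ahnak, 0.35 for Vim, -0.66 for Csrp2 and -3.78 for Myl4. Groups did not overlap for 7 higher and 1 lower gene there, where 11.8% of all genes lay wholly higher and 17% wholly lower in old B1. Both comparisons use the same old B1 arrays. Without the 2 arrays that stand apart all 9 genes kept their sign in both. Old B1 minus FO was then 7.68 for Krt8 and -4.27 for Myl4, and old B1 minus ABC 6.08 for Krt8, -3.26 for Myl4 and -0.25 for Csrp2.

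The ABC arrays spread widely among themselves for several of the genes. Replicate 1 was the highest of the 3 ABC arrays for 7 of the 9 genes, by 1.38 over the group mean for Krt18, 1.36 for Ahnak2 and 1.22 for Krt8. ABC replicate 2 was lowest for Krt18, Ahnak2 and Tppp, and ABC replicate 3 for Krt8 and Lmna. In the old B1 group replicate 3 was the lowest array for 7 of the 9 genes and the highest for Krt18 and Vim.

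Probe sets of a gene mostly ran the same way. The 3 Krt8 probe sets gave 5.04, 5.47 and 5.13 for young B1 minus ABC, and 3 of the 5 Lmna probe sets gave 3.88, 3.51 and 4.22. The other 2 Lmna probe sets had means under 6 in every group and gave -0.02 and 0.50. Of the 4 Ahnak probe sets, 1 lay under 4 on every array and gave -0.21 for ABC minus FO while the others gave 0.94, 2.30 and 2.73. Names ending in x_at mark probe sets whose probes may also match other transcripts. These are the brightest Vim probe set, 2 of the 3 Krt8 probe sets, the brightest included, and a dim Lmna probe set.

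**Figure D3:**
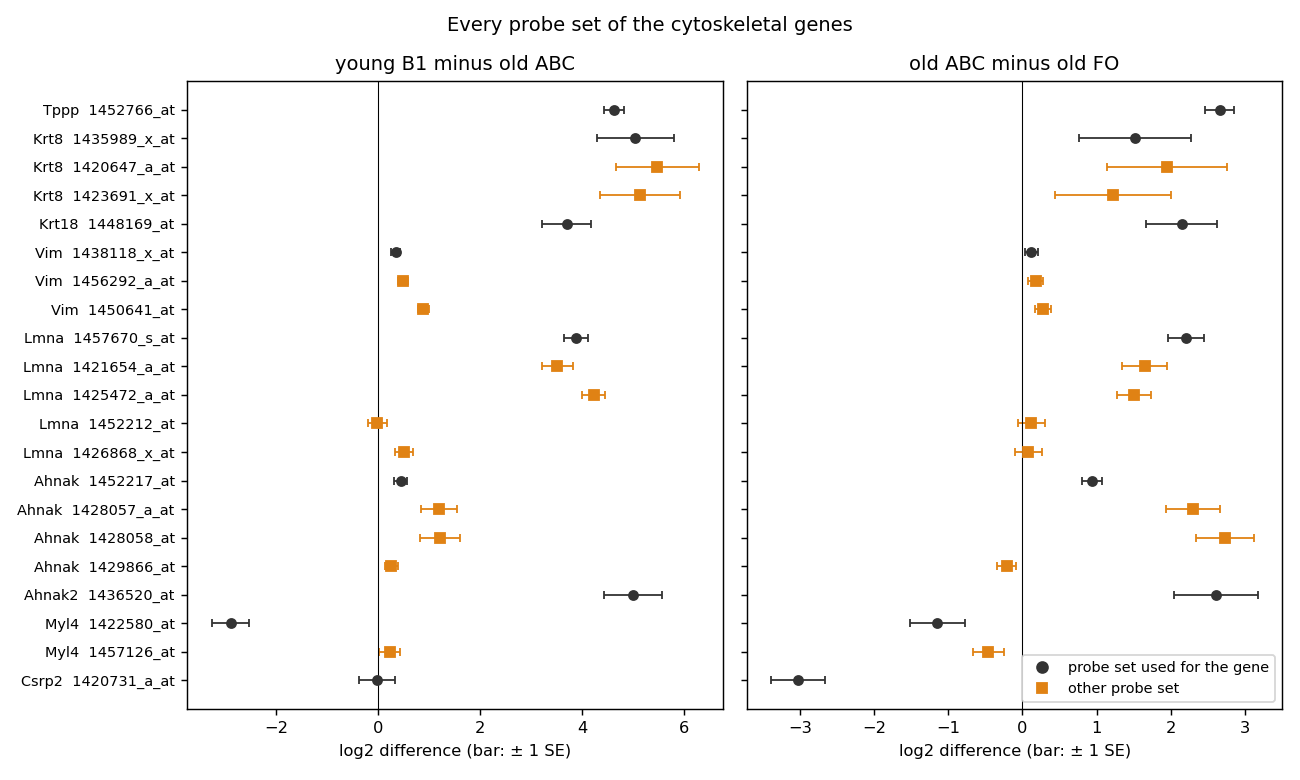
Log2 difference (horizontal axis, bars ± 1 SE) for each of the 21 probe sets (vertical axis) in young B1 minus old ABC (left) and old ABC minus old FO (right). The 3 Krt8 probe sets lie between 5.04 and 5.47 on the left, and the dim probe sets of Lmna, Ahnak and Myl4 lie near 0.

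Of 26 other microtubule genes, 3 were called higher and 1 lower in young B1 than in ABC samples, and 8 higher and 1 lower in ABC than in FO samples, with median differences of -0.01 and 0.15. For young B1 against ABC these 4 calls stand beside 11.4% of all genes, and for ABC against FO the 9 calls beside 9.96%. Tppp3, a smaller relative of Tppp, was at 12.51, 12.46 and 11.32 on the old B1 arrays, at 11.86, 12.13 and 12.18 on the young B1 arrays, at 7.77, 6.89 and 6.92 on the ABC arrays, and at 5.54, 5.87 and 5.47 on the FO arrays. It was 4.86 ± 0.33 higher in young B1 than in ABC samples (29.1-fold, limma adjusted p = 8.4e-06). Tubb6, a beta tubulin, was 4.23 ± 0.30 higher in young B1 than in ABC samples (18.7-fold, adjusted p = 1.4e-05). Tubb2a and Tubb2b, other beta tubulins, were higher in ABC than in FO samples by 1.82 ± 0.19 (adjusted p = 1.6e-04) and 1.55 ± 0.21 (adjusted p = 7.4e-04). Tuba1a, Tuba4a and Tubb5, abundant tubulins, had means from 12.19 to 13.18 in all 4 groups and were not called. The lower count in young B1 was 3 without old B1 replicate 3, and the 1 lower gene in ABC was lost in 8 single omissions.

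Of 27 actin-binding genes, 3 were called higher and 3 lower in young B1 than in ABC samples, and 3 higher and 2 lower in ABC than in FO samples. The all-gene shares were 5.47% higher and 5.95% lower in the first comparison, and 7.12% higher and 2.84% lower in the second. Tagln2, or transgelin 2, was higher in young B1 than in ABC samples by 1.97 ± 0.11 (limma adjusted p = 2.9e-06). Actn1, an alpha-actinin that cross-links actin, was higher in ABC than in FO samples by 3.05 ± 0.47 (adjusted p = 0.0019). Tpm2, a tropomyosin, was lower in young B1 than in ABC (-1.14 ± 0.19, adjusted p = 0.00319) and higher in ABC than in FO samples (1.48 ± 0.19, adjusted p = 6.3e-04). It lay below the array median on all 3 young B1 and all 3 FO arrays, so these sizes are not exact. Without old B1 replicate 3, 6 genes were higher in each comparison, and without young B1 replicate 3 or ABC replicate 1 only 1 was lower in young B1. In old against young B1 samples 0 genes of any of the 7 cytoskeletal lists were called by limma, with 1 to 3 in each list at an unadjusted p under 0.05, and without old B1 replicate 3 there was 1, a keratin. Over all genes 0.291% were called there with all arrays.

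**Figure D4:**
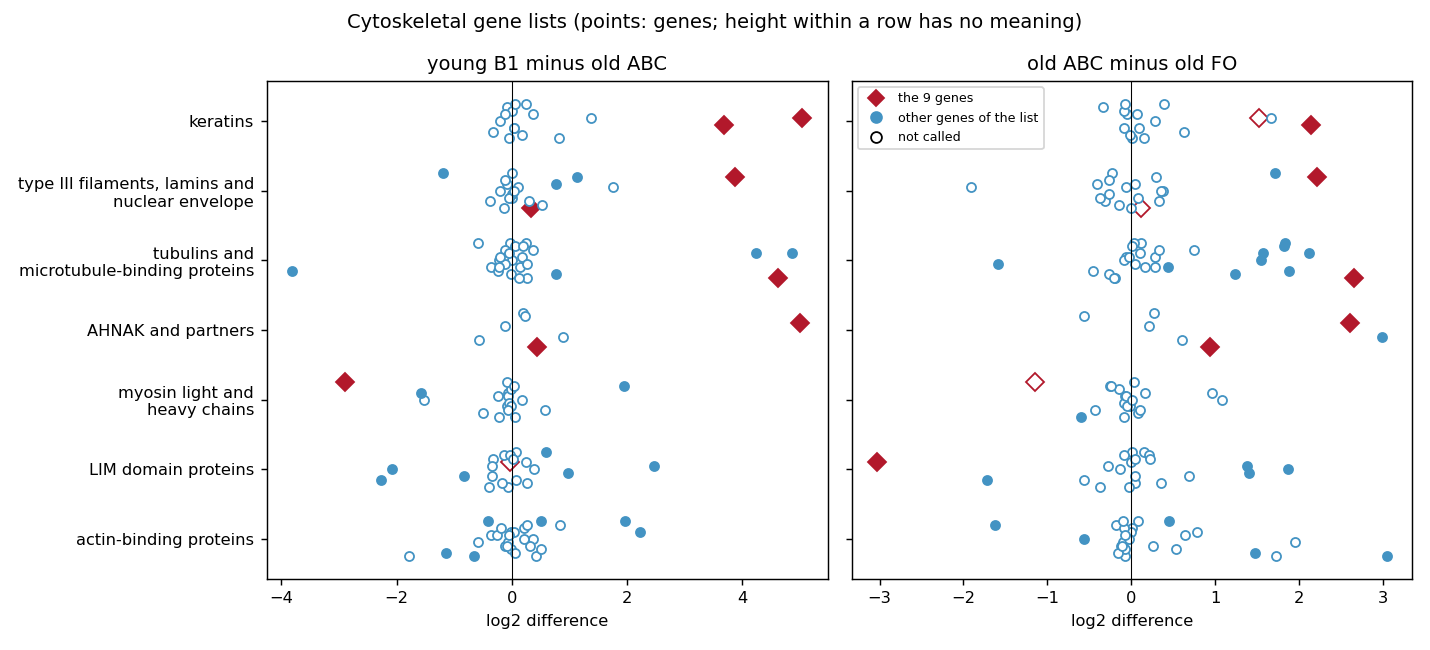
Log2 difference (horizontal axis) of each gene of the 7 cytoskeletal lists (vertical axis, 1 row a list) in young B1 minus old ABC (left) and old ABC minus old FO (right). Filled points were called, diamonds are the 9 genes, and in most lists most other genes lie near 0. On the right the AHNAK list has Anxa2 at 2.99, Dysf at 0.61, Capn3 at -0.56, S100a10 at 0.27 and S100b at 0.21.

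Genes with the profile most like these, by Pearson's r over the 12 arrays, were found among all 18193 genes. The arrays fall into separate groups and share their normalization, so r is high for many genes and is given without a p. For Tppp they were Lmna (0.997), Tubb6 (0.997) and Ypel2 (0.993). For Krt18 they were Trim40 (0.993), Dgat2, a triglyceride-making enzyme (0.991), and Prss23, a serine protease (0.987), all with a higher mean in old than in young B1 samples. For Trim40 these means were 9.98 ± 0.21 in old B1, 8.64 ± 0.21 in young B1, 5.80 ± 1.26 in ABC and 4.23 ± 0.45 in FO samples. For Ahnak2 they were Rab31, a small GTPase (0.993), Tubb6 (0.989) and Chrnb1, an acetylcholine receptor subunit (0.989). For Myl4 they were Smad7, an inhibitor of TGF-beta signalling (0.994), Acsf2 (0.989) and Klhl6 (0.989). Smad7 had means of 6.84 ± 0.59 in old B1, 7.70 ± 0.25 in young B1, 10.15 ± 0.08 in ABC and 10.75 ± 0.19 in FO samples.

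Several of the 9 genes are also expressed by other cells of the peritoneal cavity and spleen, and in bulk RNA fewer cells of a type and less RNA per cell cannot be told apart. Keratins 8 and 18 are textbook genes of the mesothelium that lines the cavity. Of 12 mesothelial markers 0 were called by limma in any tested comparison, with 2 in young B1 against ABC, 1 in ABC against FO and 4 in old against young B1 at an unadjusted p under 0.05. Over all genes 11.4%, 9.96% and 0.291% were called in these comparisons. At an unadjusted limma p under 0.05 were 4013, 3718 and 1377 of the 18193 genes. Msln, Upk3b, Upk1b, Lrrn4, Wt1, Krt19, Muc16, Bnc1, Cldn15 and Efemp1 lay below the array median on all 12 arrays. The summed list was 802 to 1866 in old B1, 290 to 299 in young B1, 208 to 395 in ABC and 181 to 274 in FO samples. The old B1 sums included Gpm6a, a membrane protein that is one of the 12 markers and is also known from neurons. Gpm6a was at 10.01, 9.32 and 10.74 on the old B1 arrays and at 6.64, 6.61 and 6.91 on the young B1 arrays. The other 3 at an unadjusted p under 0.05 ran the other way, at -0.47 for Krt7, -0.65 for Krt19 and -0.29 for Muc16 in old minus young B1. Krt18 was higher on the old B1 arrays, and the part of such cells in its level was not tested. Of 9 epithelial markers 1 was called, Epcam, an adhesion molecule, higher in young B1 than in ABC samples by 3.96 (adjusted p = 1.6e-04). The all-gene counts at an unadjusted p under 0.05 are those given above. At that threshold were 3 epithelial markers in young B1 against ABC, 2 in ABC against FO and 2 in old against young B1. The last 2, Cdh1 and Cldn7, were higher in old B1 samples by 2.63 ± 0.86 and 1.49 ± 0.58. On old B1 replicate 2 they were at 3.36 and 4.02, within the young B1 range. The part of epithelial cells in the level of Krt18 was not tested. Cldn3, Cldn4, Esrp1, Elf3 and Ovol1 lay below the array median on all 12 arrays. Fibroblast and smooth muscle markers summed to 273 to 369 in old B1, 246 to 294 in young B1, 239 to 351 in ABC and 240 to 317 in FO samples.

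Summed macrophage and mast cell markers were higher on every B1 and ABC array than on any FO array. Tppp, Krt18, Lmna, Ahnak and Ahnak2 were too, but this follows in part from the choice of genes around differences between B1 and FO cells. The share of all genes with this pattern was not counted. The 16 macrophage markers summed to 12951 to 33063 in old B1, 16891 to 28997 in young B1, 16433 to 18385 in ABC and 1221 to 3176 in FO samples. Of them 11 were called higher in ABC than in FO samples by limma, and 2 higher and 1 lower in young B1 than in ABC samples. The 9 mast cell markers summed to 2098 to 5101 in old B1, 2368 to 10281 in young B1, 521 to 1375 in ABC and 238 to 260 in FO samples, with 4 called higher in young B1 than in ABC and 3 higher in ABC than in FO samples. Among macrophage markers, the 2 called higher in young B1 than in ABC samples were Prg4 (5.26 ± 0.73, limma adjusted p = 9.4e-04) and Timd4 (1.98 ± 0.56, adjusted p = 0.0463). The 1 called lower was Adgre1 (-2.53 ± 0.40, adjusted p = 0.00218). Gata6, a factor of cavity macrophages, lay below the array median on all 12 arrays. The part of macrophages and mast cells in the differences of the 9 genes was not tested. Of 8 neutrophil markers 8 were lower in young B1 than in ABC samples and 5 higher in ABC than in FO samples. T cell, dendritic and endothelial markers had 0 called higher in young B1 than in ABC samples and 1, 2 and 1 lower. Of 9 B1 cell markers 3 were higher and 1 lower in young B1 than in ABC samples, and 8 higher in ABC than in FO samples. All 4 FO markers were lower in ABC than in FO samples. Over all genes 5.47% were called higher and 5.95% lower in young B1 than in ABC samples, and 7.12% higher and 2.84% lower in ABC than in FO samples.

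**Figure D5:**
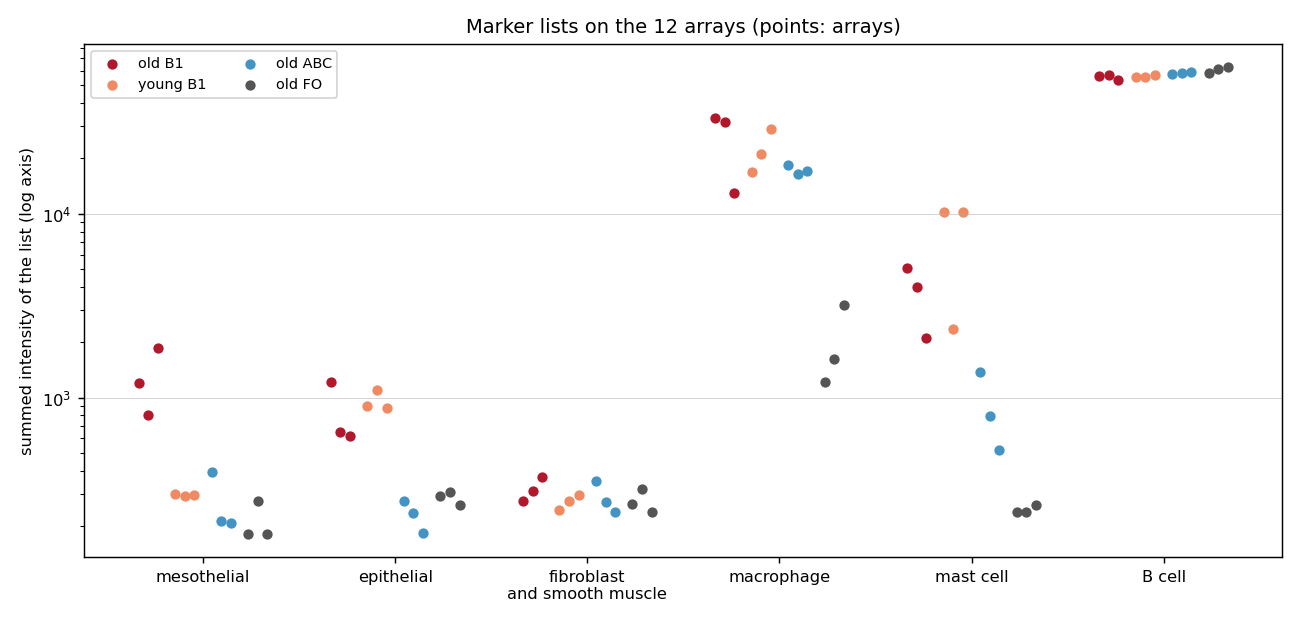
Summed intensity (vertical log axis) of 6 marker lists (horizontal axis) on each of the 12 arrays, coloured by group. Macrophage sums lie between 1221 and 3176 in FO samples and at 12951 or more in the other groups, while the B cell sums lie between 53385 and 62648 on all arrays.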

How the data were processed

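Total RNA of sorted mouse B cells was copied into biotin-labelled cRNA for Affymetrix arrays, per the labels. The authors deposited linear intensity values, from 3 to 22068, and RMA and affy are named in the submitters' processing notes without versions. Their settings and order: not given in the sources used here. Scanner files and scan dates were not used here.

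The log2 of each intensity was taken. Each of 18193 genes is its brightest probe set by mean over 12 arrays among the 34945 with 1 symbol; 932 probe sets with several symbols and 9160 with none were left out, and no dim filter was applied. All 12 arrays were fitted with 4 group means in limma 3.58.1 (R 4.3.3, lmFit and eBayes, 8 residual degrees of freedom, prior 2.37), with Benjamini-Hochberg adjustment over all genes. The number of arrays limits the precision. The procedure was also run on simulated data. Each gene had equal spread over groups and arrays there, so that run does not cover the uneven spread described above. Symbols of 34741 probe sets matched the RefSeq table by gene identifier, and 0 changed. Sequences are from RefSeq.

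The 9 genes, the lists and the comparisons were chosen with earlier results of these data known. Named genes are the 9, up to 2 called genes with the lowest p per cytoskeletal list and comparison, and the 3 most alike for 4 of the 9. Beyond these, genes named for their level (Krt10, Krt80, Lmnb1, S100a10, the abundant tubulins) and markers were chosen after their values were seen. Alternatives were array weights, the compared groups alone, a replicate block, cyclic loess, a dim filter, other probe set rules and leaving out arrays. Applying them to the lists was chosen after seeing the data.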

Additional observations from a re-analysis of the deposited data

How the results depend on the processing

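Of 540 values of the 9 genes under 20 alternatives in the tested comparisons, 487 kept their direction and side of the threshold, 27 lost and 10 gained a call, and 16 changed sign; 0 of the sign changes was in a called value. No value of the described differences changed sign. The changes of sign came in old minus young B1 differences, when 1 array was left out: Vim (-0.02 to 0.06), Tppp (-0.06 to 0.13), Krt8 (-0.34 to 1.03), Ahnak2 (-0.07 to 0.26) and Lmna (-0.19 to 0.02). Vim was also -0.01 with array weights, -0.04 with cyclic loess and -0.02 without the 2 arrays that stand apart, old B1 replicate 3 and FO replicate 2, where Lmna was 0.02. Csrp2 ran from -0.20 to 0.22 in young B1 minus ABC when 1 array was left out. The cause was not tested.

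The count of genes called, in the order old B1 minus FO, old B1 minus ABC, young B1 minus ABC, ABC minus FO and old minus young B1, was 2988, 2334, 2079, 1812 and 53. It was 5001, 3592, 4549, 3961 and 316 with array weights. Testing all 45037 probe sets gave 5167, 3820, 3349 and 2763 in the first 4. With the compared groups alone it was 1455, 1062 and 3278 in the first 3 and 2 in the last. Without the 2 arrays that stand apart it was 3768, 2964 and 208 in the last 3. Leaving out 1 array gave 2098 to 3555, 1609 to 2738, 1304 to 3206, 1267 to 2837 and 17 to 165, the highest each time without old B1 replicate 3 and the lowest without FO replicate 1, ABC replicate 2, young B1 replicate 3, FO replicate 1 and young B1 replicate 1. Of the 9 genes, 6 to 8, 4 to 7 and 0 to 1 were called in the 3 tested comparisons when 1 array was left out, against 8, 6 and 0, and 1 in old against young B1 with array weights or these groups alone.

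Whether same-numbered arrays share more than a number is not stated in the sources used here. Their deviations correlated over 0.1 in 3 of 18 pairs (-0.39 to 0.23), and 4 of 18 correlated best with their own number. With deviations taken from means of 3 arrays, this cannot exclude a shared preparation. With the replicate block 32 genes were called in old against young B1 samples in place of 53, and Vim (adjusted p = 0.0642) and Ahnak (0.0706) were not called in young B1 against ABC samples. All 9 genes were among the 11159 kept by the dim filter.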
